A study of Mus musculus with 24 samples.

Results

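The comparison described here set 4 mouse pre-B cell acute lymphoblastic leukaemias (preB-ALL) of Cebpb LAP transgenic mice against 5 preB-ALL of Blnk homozygous knock-out mice. The 9 tumours were chosen by title, LAP preB-ALL or Blnk preB-ALL, out of 24 arrays in the series. The other 15 arrays were 3 preB-ALL of mice with both lesions (LAP/Blnk preB-ALL), 4 tumours called LAP B-ALL, also of LAP transgenic mice, and 8 arrays of the cell line BKO408. Total RNA was labelled and hybridised without any treatment, and each value is a log ratio, taken here as log2, to the median of that probe set over the 16 tumours. A value of 1 therefore means about double the tumour median, and a difference between group means is a log2 fold change. The 2 groups differ in 2 alleles at once: the LAP tumours carry the transgene and are not labelled as lacking Blnk, and the Blnk tumours lack Blnk and carry no transgene. No group of tumours without either lesion was among the samples, so no value can be set against normal pre-B cells. The sources used here do not give the promoter of the transgene, the deleted part of Blnk, the age of the mice or the tissue sampled. The labels number the tumours within a group without saying whether each came from a mouse of its own, and a p-value here reads only how far these tumours scatter.

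Pre-B cells assemble a receptor from the immunoglobulin heavy chain and a surrogate light chain, whose parts are encoded by Vpreb1, Vpreb2 and Igll1, with Cd79a and Cd79b as signalling subunits. BLNK is the adaptor that links this receptor to calcium and kinase signalling, and mice without it develop pre-B leukaemia. C/EBPβ is a transcription factor of myeloid cells and macrophages, and LAP is its activating isoform. High C/EBP levels can turn B-lineage cells toward a myeloid programme in culture.

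The promoters of 4 genes are shown, because Spsb4 was the single gene that passed the test, Id3 had the next smallest p, and Wapl and Enpep hold a C/EBP-type motif. Wapl and Enpep did not pass, and their groups did not overlap. Each is the stretch of 250 bases before the first start listed for the gene in RefSeq, on build GRCm38.p6, written 5′ to 3′ on the gene's strand. The motif is TTGCNNAA, or TTNNGCAA on the other strand, and stands in capitals. Spsb4 lies at chr9:97018356-97018605 (minus strand), Id3 at chr4:136143572-136143821 (plus), Wapl at chr14:34673678-34673927 (plus) and Enpep at chr3:129332750-129332999 (minus).
Spsb4: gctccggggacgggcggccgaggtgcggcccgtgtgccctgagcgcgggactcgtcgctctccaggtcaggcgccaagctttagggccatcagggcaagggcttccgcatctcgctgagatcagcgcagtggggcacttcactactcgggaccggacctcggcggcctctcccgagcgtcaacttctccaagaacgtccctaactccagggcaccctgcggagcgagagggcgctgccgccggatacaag
Id3: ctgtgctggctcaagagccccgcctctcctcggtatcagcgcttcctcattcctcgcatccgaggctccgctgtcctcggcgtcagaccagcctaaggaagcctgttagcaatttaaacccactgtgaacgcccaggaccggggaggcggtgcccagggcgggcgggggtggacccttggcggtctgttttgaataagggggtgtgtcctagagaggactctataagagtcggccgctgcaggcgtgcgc
Wapl: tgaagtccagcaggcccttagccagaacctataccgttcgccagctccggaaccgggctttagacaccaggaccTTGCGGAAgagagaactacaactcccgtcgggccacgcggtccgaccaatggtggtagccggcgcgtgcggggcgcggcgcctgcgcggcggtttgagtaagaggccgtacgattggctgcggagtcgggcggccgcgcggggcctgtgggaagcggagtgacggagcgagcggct
Enpep: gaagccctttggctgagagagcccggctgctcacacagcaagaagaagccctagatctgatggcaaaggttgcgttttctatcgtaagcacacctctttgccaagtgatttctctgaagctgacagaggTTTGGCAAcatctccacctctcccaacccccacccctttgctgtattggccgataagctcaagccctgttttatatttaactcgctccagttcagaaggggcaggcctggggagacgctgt
The motif began 176 bases before the start in Wapl and 121 bases before it in Enpep, and these letters did not occur in the windows of Spsb4 and Id3. Among all tested genes with a promoter in the table, 1090 of 13514 (8.07%) held the motif. Of the genes whose groups did not overlap, it was in 15 of 193 (7.77%) of those higher in the LAP tumours and in 20 of 333 (6.01%) of those lower. A match is a description of the letters and not a binding site.

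Before the results, 3 arrays stood apart. LAP preB-ALL 4 had a median of 5.31 over 16 erythroid and platelet genes, where the other 8 tumours compared lay between -0.40 and 0.22. Its median was 2.42 over 17 granulocyte genes. Outside the comparison, LAP B-ALL 1 to 3 were also high for the erythroid genes (4.84, 5.14 and 5.60), and LAP B-ALL 4 was not (0.22). The granulocyte medians of LAP B-ALL 1 to 4 were 1.10, 1.42, 1.08 and 2.25. Blnk preB-ALL 5 had a granulocyte median of 3.06 and a stroma and endothelium median of 1.32 over 19 genes, the highest of the 9 tumours for both. The array labelled LAP B-ALL 4 lies outside the comparison and enters only the estimate of spread over 16 tumours. Its Cebpb value of -3.11 lay among the tumours without the transgene, where the other LAP B-ALL lay between 0.14 and 0.90. Calls are therefore given with and without these arrays.

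Cebpb separated the groups on the probe set with the largest spread. Its values were -3.99, -3.33, -3.19, -4.50 and -1.94 in the Blnk tumours and 0.03, -1.41, 0.05 and 0.19 in the LAP tumours. The groups did not overlap, and LAP preB-ALL 2 lay closest to the Blnk tumours. The difference was 3.10 ± 0.57 (SE, 4 against 5 tumours), with an exact permutation p of 0.0159, the smallest that this design allows, and 0.0635 after Benjamini-Hochberg adjustment over 4 probe sets. The other Cebpb probe sets differed by 0.60 ± 0.65 and 0.14 ± 0.11 with overlapping groups (exact permutation p = 0.413 and 0.27). Whether a probe set reads the transgene, the mouse's own Cebpb or both was not given. In the tumours with both lesions the first probe set read 0.51, -0.03 and 0.27, beside the LAP tumours.

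Blnk RNA did not set the knock-out tumours apart. The values were -0.53, -0.68, 0.94, -0.17 and -0.55 in the Blnk tumours and 0.01, 1.45, -0.06 and -0.01 in the LAP tumours. The groups overlapped, with the highest Blnk tumour above 3 of the 4 LAP tumours. The difference was 0.54 ± 0.47 (SE), with an exact permutation p of 0.302 (adjusted p = 0.402). Whether the probe set lies in the deleted part was not given, so it does not check the genotype.

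**Figure D1:**
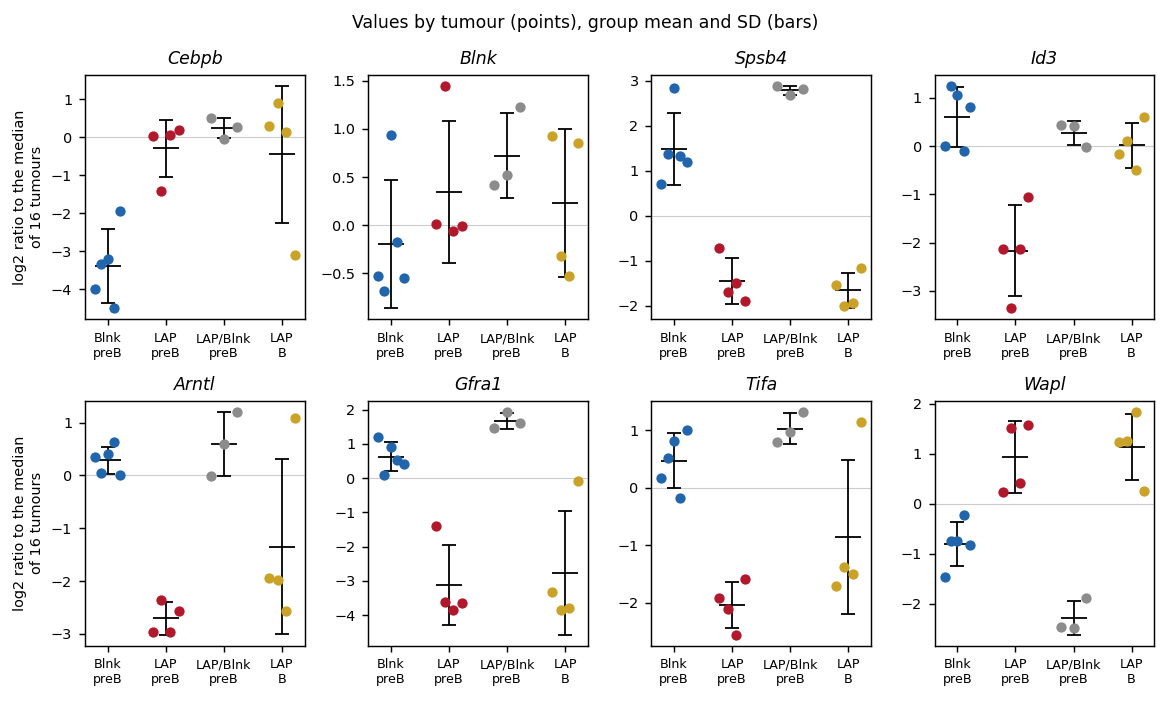
Values of 8 genes in the 16 tumours (vertical axis, log2 ratio to the median of the 16 tumours), by group, with points for tumours and bars for the group mean and SD. Spsb4, Id3, Arntl, Gfra1 and Tifa lay lower in all 4 LAP preB-ALL than in all 5 Blnk preB-ALL, Cebpb and Wapl lay higher, and Blnk overlapped.

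Across the genome, Spsb4 was the only gene that passed. In the limma fit over 17097 genes, 1 gene (0.00585%) reached an adjusted p under 0.05, and it was lower in the LAP tumours. No gene higher in the LAP tumours passed, while 846 genes (4.95%) were higher and 1148 (6.71%) lower at an unadjusted p under 0.05, where the level of the test alone gives 855 in both directions together. The 2 groups did not overlap for 656 genes (3.84%), 245 (1.43%) higher and 411 (2.40%) lower in the LAP tumours. A difference of at least 2-fold was seen for 308 genes (1.80%) on the higher and 404 (2.36%) on the lower side, and 23 (0.135%) and 94 (0.550%) of all genes had both. The median difference over all genes was 0.005.

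Spsb4, which encodes a SOCS-box protein that brings substrates to a ubiquitin ligase, fell 7.68-fold in the LAP tumours relative to the Blnk tumours. Its values were 0.72, 1.38, 2.84, 1.33 and 1.19 in the Blnk tumours and -0.72, -1.70, -1.48 and -1.89 in the LAP tumours. All 5 Blnk tumours lay above the tumour median and all 4 LAP tumours below it. The difference was -2.94 ± 0.36 (SE), with an adjusted p of 0.0185 in limma. A second Spsb4 probe set also had groups that did not overlap, with a difference of -1.65. The tumours with both lesions read 2.88, 2.68 and 2.82, at the level of the highest Blnk tumour, and the LAP B-ALL read -1.53, -2.00, -1.94 and -1.15. The call was lost without Blnk preB-ALL 2 (adjusted p = 0.0734), LAP preB-ALL 2 (0.0619) or LAP preB-ALL 3 (0.0516), with a spread estimated from the 9 tumours alone (0.108), and with the mean of probe sets (difference -2.29, adjusted p = 0.0528), while the difference stayed between -2.61 and -3.18 when each tumour was left out in turn.

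The number of calls depended on single arrays. Without LAP preB-ALL 4 the fit called 14 genes, 5 higher (Alkbh2, Atp8b4, Haao, P2rx3, Sh2b2) and 9 lower, among them Spsb4, Id3, Cdkn2c, E2f2 and Sptbn1. Without both Blnk preB-ALL 5 and LAP preB-ALL 4 it called 16. Without the array labelled LAP B-ALL 4, which changes only the estimate of spread, it called 48, 6 higher and 42 lower. The 6 higher were AI413582, Anapc11, Atp6v0b, Cebpb, Rfc5 and Wapl. The 42 lower included Arntl, Id3, Gfra1, Tifa, Myb, Rnf144a, Vash2, Epha2, Sptbn1, Rhob, Tra2b, Slc25a36, Ankrd6 and Spsb4. With the 9 tumours alone, Arntl was the gene called (adjusted p = 0.00122).

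**Figure D2:**
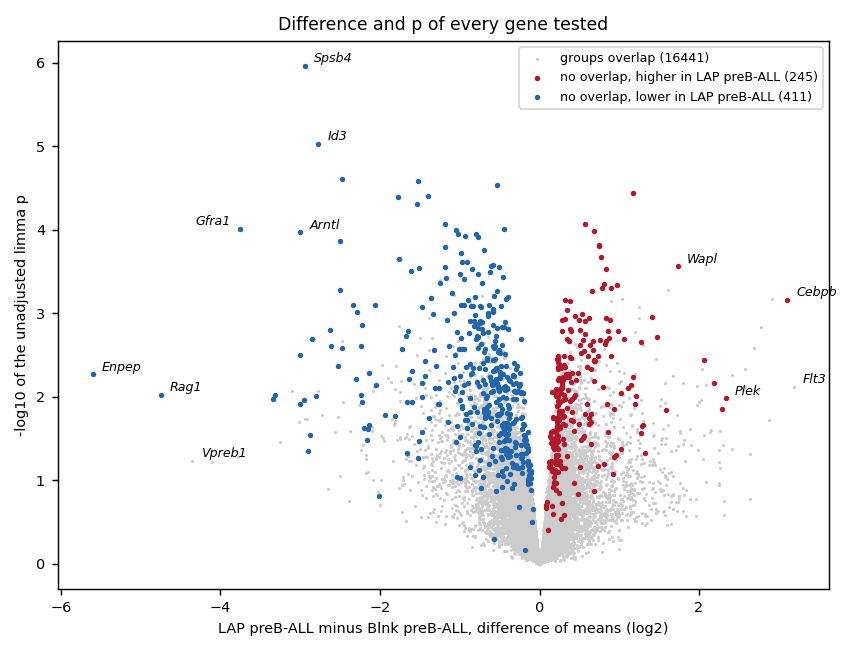
Difference between the group means (horizontal axis, log2, LAP preB-ALL minus Blnk preB-ALL) and minus log10 of the unadjusted limma p (vertical axis) for the genes tested, coloured where the 4 and 5 tumours did not overlap. More points without overlap lie on the lower side (411) than on the higher side (245), and Spsb4 has the smallest p.

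The genes named next did not pass, and they were chosen after their values were seen unless stated otherwise. They are given as values of groups that did not overlap. Id3, an inhibitor of the E proteins that drive B-cell development, was on the panel of genes named by rule. It read 0.01, 1.25, 1.05, -0.11 and 0.80 in the Blnk tumours and -2.13, -3.36, -2.14 and -1.05 in the LAP tumours. The difference was -2.77 ± 0.41 (limma adjusted p = 0.0803). In the tumours with both lesions Id3 read 0.43, 0.41 and -0.01, within the range of the Blnk tumours. The LAP B-ALL, also of LAP transgenic mice, read -0.16, 0.11, -0.50 and 0.60, all above the LAP preB-ALL.

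Arntl, a transcription factor of the circadian clock, was even within both groups. Its values were 0.34, 0.05, 0.41, 0.63 and 0.01 in the Blnk tumours and -2.96, -2.35, -2.96 and -2.56 in the LAP tumours. The difference was -3.00 ± 0.56 (limma adjusted p = 0.105), and a second probe set differed by -0.72, also without overlap. The array labelled LAP B-ALL 4 read 1.09 and the other LAP B-ALL between -2.56 and -1.94. No label gives the time of day of sampling.

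Gfra1, the GDNF co-receptor, read 1.19, 0.10, 0.92, 0.53 and 0.40 in the Blnk tumours and -1.39, -3.62, -3.85 and -3.66 in the LAP tumours. Its difference was -3.76 ± 0.69 (limma adjusted p = 0.105), and none of its 3 probe sets overlapped. Tifa, an adaptor upstream of NF-kB and named by rule, read 0.17, 0.52, 0.82, -0.17 and 1.01 against -1.92, -2.10, -2.55 and -1.58. Its difference was -2.51 ± 0.48 (limma adjusted p = 0.111). All 4 LAP tumours lay more than 1 unit under the lowest Blnk tumour for both genes.

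Other genes lower in the LAP tumours came from several functions. The ubiquitin ligase gene Rnf144a differed by -2.47 ± 0.40, the deubiquitinase gene Stambpl1 by -2.86 ± 0.75, the beta-spectrin gene Sptbn1 by -1.78 ± 0.30 and the small GTPase gene Rhob by -1.54 ± 0.26. The vasohibin gene Vash2 differed by -1.53 ± 0.25, the ephrin receptor gene Epha2 by -1.39 ± 0.23, the kinesin gene Kif20b by -1.18 ± 0.23 and the mitochondrial carrier gene Slc25a36 by -1.05 ± 0.19. Their limma adjusted p lay between 0.0863 and 0.224. Groups did not overlap on 1 of 2 Kif20b probe sets and on 4 of 6 Sptbn1 probe sets. Over the alternative settings the Kif20b difference ran from -1.46 to -0.29. Epha2 came closest to overlap, with -0.05 in LAP preB-ALL 3 and 0.05 in Blnk preB-ALL 4.

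Fewer genes lay far higher in the LAP tumours. Wapl, which releases cohesin from chromosomes, read -1.46, -0.74, -0.74, -0.23 and -0.83 in the Blnk tumours and 0.23, 1.52, 0.42 and 1.58 in the LAP tumours. The difference was 1.73 ± 0.36 (limma adjusted p = 0.135), 1 of its 3 probe sets had groups without overlap, and the tumours with both lesions read -2.46, -2.48 and -1.89. Ell2, a transcription elongation factor of plasma cells, read -0.46, -2.13, -0.62, -0.81 and -0.50 against 0.18, 2.08, 0.50 and 1.85. LAP preB-ALL 2 and 4 were the high ones for both genes.

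Other genes without overlap lay on the same side. The pleckstrin gene Plek differed by 2.34 ± 0.79, and 1 of its 3 probe sets had groups without overlap. The cystatin gene Cst7 differed by 2.19 ± 0.69, the Cdc42 exchange factor gene Fgd2 by 1.48 ± 0.39 and the integrin gene Itgal by 1.32 ± 0.61. The nuclear IkB gene Nfkbid differed by 1.59 ± 0.57 and was 3.36 and 1.75 in LAP preB-ALL 2 and 4 against 0.38 and 0.27 in LAP preB-ALL 1 and 3. The inhibitory receptor gene Lilrb4a differed by 1.29 ± 0.50. Smaller and even differences were seen for Anapc11, a subunit of the anaphase-promoting complex (0.57 ± 0.10), and Hrob, a homologous recombination factor (0.69 ± 0.13). For Anapc11, 1 of 2 probe sets had groups without overlap. The limma adjusted p of the genes in this paragraph lay between 0.105 and 0.423.

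The pre-B receptor genes split the LAP tumours into pairs rather than separating the groups. Vpreb1 read 0.11, -0.45, 0.16, -0.01 and 0.13 in the Blnk tumours and -0.11, -8.49, 0.01 and -8.89 in LAP preB-ALL 1 to 4. LAP preB-ALL 1 and 3 thus lay with the Blnk tumours, while LAP preB-ALL 2 and 4 lay far below, as 3 of the 4 LAP B-ALL did. Vpreb2 read -0.18, -8.30, -0.01 and -8.28 and Vpreb3 read -0.14, -2.85, 0.32 and -4.92 in the LAP tumours. The differences of the group means, -4.36 ± 2.11, -4.10 ± 2.01 and -2.03 ± 1.29, came from these 2 tumours and did not pass (limma adjusted p = 0.437, 0.442 and 0.54). The signalling subunit genes Cd79a and Cd79b differed by -0.31 ± 0.19 and -0.69 ± 0.29. Cd79b read -1.30, 0.06, -1.05 and -0.86 in the LAP tumours and between -0.44 and 0.16 in the Blnk tumours. Over the 6 measured components the median difference was -1.36, against 0.005 over all genes, and 1 (Cd79b) had an unadjusted p under 0.05.

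The pre-B markers therefore went against the label in LAP preB-ALL 2 and 4, whose surrogate light chain genes were the lowest of the 9 tumours. Igll1, Il7r and Cebpe had no value here. In bulk samples, fewer cells of a type and less RNA per cell cannot be told apart.

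Genes of V(D)J recombination and the early pro-B stage lay lower in the LAP tumours, most of all in LAP preB-ALL 2 and 4. The list medians were -0.05, -0.77, 0.00 and -0.71 in LAP preB-ALL 1 to 4 and between 0.10 and 0.64 in the Blnk tumours. Of 16 measured genes, 9 were lower and 2 higher at an unadjusted p under 0.05, beside 6.71% and 4.95% of all genes, none passed the adjusted test, and the median difference was -1.15. Rag1, part of the recombinase that joins immunoglobulin gene segments, read 0.49, -0.08, 1.27, 0.90 and 1.16 in the Blnk tumours and -3.71, -6.24, -0.41 and -5.66 in the LAP tumours. Rag2, its partner, read 0.55, -0.55, 2.09, 1.19 and 0.68 against -1.92, -3.74, -0.64 and -3.89. The groups did not overlap for either gene, although LAP preB-ALL 3 lay just under the lowest Blnk tumour for both. The differences were -4.75 ± 1.58 for Rag1 and -3.34 ± 1.13 for Rag2 (limma adjusted p = 0.288 and 0.294).

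Other early genes followed 2 patterns. Lef1, a Wnt-pathway factor of pro-B cells, and Hmgb2, a chromatin protein and cofactor of the recombinase, did not overlap between groups and differed by -1.81 ± 0.67 and -0.46 ± 0.10. Sox4 read -0.35, -6.35, 0.18 and -5.09 in LAP preB-ALL 1 to 4, and the early B receptor gene Cd93 read -0.94, -5.55, -0.01 and -2.89. Both were low in LAP preB-ALL 2 and 4, like Vpreb1. Dntt, which adds nucleotides at the joins, was 5.79 in Blnk preB-ALL 3 and between -0.53 and 1.29 in the other 8 tumours. Enpep, the BP-1 surface antigen of pre-B cells and in none of the lists named by rule, had the most negative difference among the genes named here, -5.60 ± 1.70 (limma adjusted p = 0.272). It read 0.76, 0.00, 1.28, 1.18 and 1.69 against -0.06, -6.83, -4.73 and -6.85, so LAP preB-ALL 1 lay just under the lowest Blnk tumour.

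Cytokine receptor genes of progenitors were the exception in that list. Flt3, the receptor of Flt3 ligand, read 0.18, 0.10, -0.21, -0.84 and 0.70 in the Blnk tumours and 3.85, 2.18, 7.09 and -0.42 in the LAP tumours. It was above the Blnk tumours in 3 of 4 LAP tumours, with a difference of 3.19 ± 1.02 (limma adjusted p = 0.278). Kit, the stem cell factor receptor gene, read 1.15, -0.63, 2.39 and 0.72 in the LAP tumours and between -0.66 and 0.62 in the Blnk tumours. Both were highest in LAP preB-ALL 3. Flt3 is also on the list of dendritic cell markers, and the part of such cells in its values was not tested.

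B-lineage transcription factors leaned the same way as the recombination genes. Of 26 measured, 7 were lower and 2 higher at an unadjusted p under 0.05, beside 6.71% and 4.95% of all genes, and the groups did not overlap for 4 (Bach2, Ets1, Id3 and Myb), all lower in the LAP tumours, beside 2.40% of all genes. Bach2, a repressor that restrains plasma-cell and myeloid genes, read 0.50, -0.01, 1.20, 0.72 and 0.82 against -1.64, -1.85, -1.60 and -5.61. LAP preB-ALL 4 was the lowest by far, and all 3 Bach2 probe sets had groups without overlap. Myb, a proto-oncogene of progenitors, differed by -1.47 ± 0.46 and Ets1 by -0.85 ± 0.33. For Ets1, 2 of 4 probe sets had groups without overlap.

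Among the core identity factors, Pax5 and the E-protein genes shifted less. Pax5 differed by -0.62 ± 0.29, and the E-protein genes Tcf3 and Tcf12 by -0.55 ± 0.19 and -0.76 ± 0.26. Ebf1, which specifies the B lineage, differed by -1.60 ± 0.88 (limma adjusted p = 0.486). It read -0.01, -1.43, 0.01 and -3.77 in the LAP tumours and between -0.39 and 0.84 in the Blnk tumours. Erg differed by -2.73 ± 1.00 (limma adjusted p = 0.328). It read 0.04, -4.65, -0.18 and -3.52 in the LAP tumours, low in the same 2 as Vpreb1. Spi1, which encodes PU.1, a factor of myeloid and B cells, differed by 0.50 ± 0.17 (limma adjusted p = 0.306), with 1 LAP tumour inside the Blnk range. Irf4 and Irf8, which end pre-B receptor signalling and guide light chain opening, both differed by -0.36 ± 0.49 and were highest in LAP preB-ALL 2 (1.32 and 1.82). The sign of the Irf4 difference held on 1 of its 2 probe sets. Without both Blnk preB-ALL 5 and LAP preB-ALL 4 the difference of Irf4 was 0.15.

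**Figure D3:**
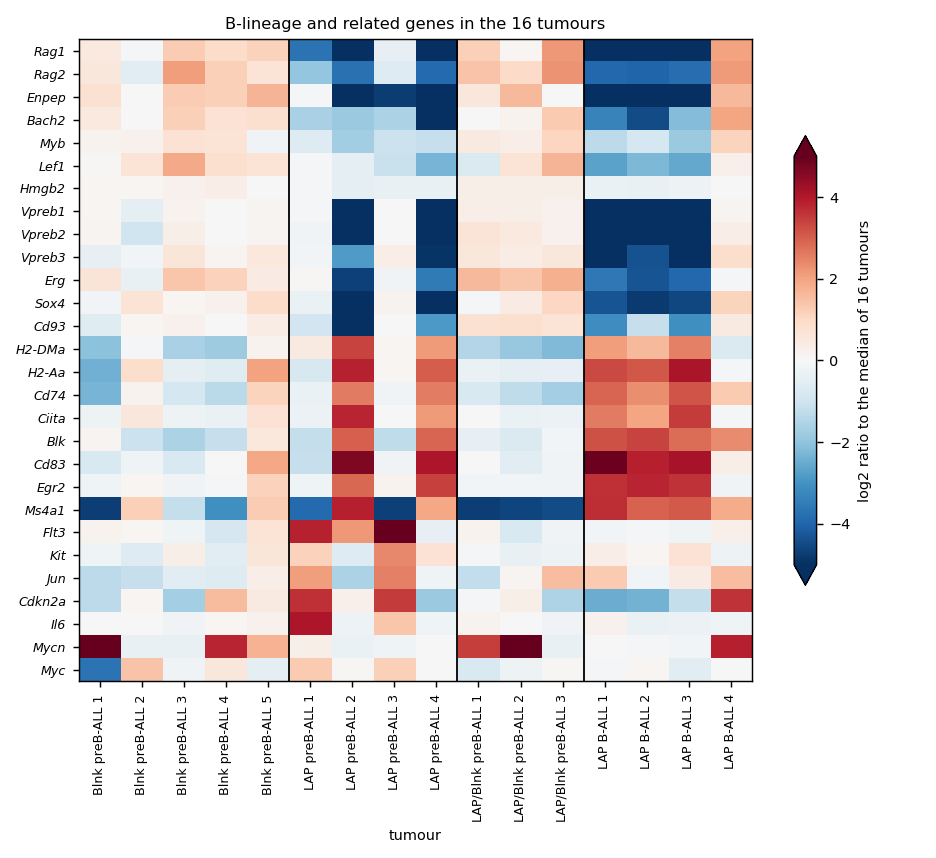
Heat map of 28 B-lineage and related genes (rows) in the 16 tumours (columns, groups parted by lines), coloured by log2 ratio to the median of the 16 tumours with colours ending at 5 in either direction. LAP preB-ALL 2 and 4 share low Vpreb1, Erg and Sox4 and high class II genes with 3 of the 4 LAP B-ALL, and LAP preB-ALL 1 and 3 share high Cdkn2a and Jun.

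Genes of class II antigen presentation lay higher in the LAP tumours on average, through the same pair of tumours. Of 13 measured, 12 had a positive difference, where 51.0% of all genes did, 5 were higher at an unadjusted p under 0.05, beside 4.95%, and the median difference was 1.31. H2-DMa, which helps load peptides, read -2.05, -0.09, -1.63, -1.77 and 0.18 in the Blnk tumours and 0.45, 3.36, 0.09 and 2.12 in the LAP tumours. LAP preB-ALL 2 and 4 were the highest, LAP preB-ALL 3 lay below Blnk preB-ALL 5, and the difference was 2.58 ± 0.76 (limma adjusted p = 0.266). Cd74, the invariant chain, differed by 1.81 ± 0.76, H2-DMb1 by 2.04 ± 0.60 and H2-DMb2 by 2.58 ± 0.83. Ciita, the master regulator of these genes, read 3.82 and 2.13 in LAP preB-ALL 2 and 4, -0.30 and 0.01 in LAP preB-ALL 1 and 3, and at most 0.73 in the Blnk tumours. Markers of dendritic cells had medians between -0.11 and 0.55 in the LAP tumours, highest in LAP preB-ALL 2, and between -0.23 and 0.53 in the Blnk tumours. The part of dendritic cells in the class II values was not tested.

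Immature and mature B-cell genes were mixed. Of 27 measured, 3 were higher (Tnfrsf13b, Ly86 and Fcgr2b) and 1 lower (Slamf6) at an unadjusted p under 0.05, beside 4.95% and 6.71% of all genes, and the median difference was 0.31. Ly86, a partner of the receptor RP105, and Fcgr2b, the inhibitory Fc receptor gene, had groups without overlap and differed by 1.21 ± 0.40 and 1.17 ± 0.36. For Fcgr2b this held on 3 of 4 probe sets. Ms4a1, which encodes CD20, read -4.69, 1.21, -1.21, -3.05 and 1.28 in the Blnk tumours and -3.87, 3.87, -4.67 and 1.94 in the LAP tumours. The spread within each group was wider than the difference of 0.61 ± 1.65, whose sign changed when single tumours were left out. Cd83 read 4.68 and 4.05 in LAP preB-ALL 2 and 4, the tyrosine kinase gene Blk 2.99 and 2.92, and the early response gene Egr2 2.88 and 3.43. In LAP preB-ALL 1 and 3 these 3 genes lay between -1.28 and 0.16.

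Downstream of the pre-B receptor, Plcg2, Ptpn6, Lat2 and Malt1 were higher at an unadjusted p under 0.05 among 19 measured signalling genes, and none was lower, beside 4.95% and 6.71% of all genes. Plcg2, the phospholipase that BLNK recruits, read 0.00, 0.00, -0.76, -0.33 and -0.27 in the Blnk tumours and 0.66, 0.18, 0.66 and 0.16 in the LAP tumours. Its difference was 0.68 ± 0.21 without overlap (limma adjusted p = 0.275). Ptpn6, the phosphatase SHP-1, differed by 1.14 ± 0.36, also without overlap. The median over the list was 0.18, and 0.46 without LAP preB-ALL 3.

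Among C/EBP family genes and their myeloid and inflammatory targets, 5 of 29 were higher and none lower at an unadjusted p under 0.05, beside 4.95% and 6.71% of all genes. They were Cebpb, Tnf, Ccl3, Ccl4 and Socs3, and the median over the list was 0.21. The chemokine gene Ccl3 read -0.18, 2.55, 1.21 and 3.94 in the LAP tumours and between -0.37 and 0.19 in the Blnk tumours, so 3 of 4 LAP tumours were above all Blnk tumours. Socs3, a feedback inhibitor of cytokine signalling, read 2.00, -0.33, 0.40 and 0.23 against -0.86, -0.81, -1.79, -0.53 and 0.44. Il6 was 4.05 in LAP preB-ALL 1 and 1.38 in LAP preB-ALL 3, and at most 0.22 in the other 7 tumours. The granule genes Mpo and S100a8 were high in LAP preB-ALL 4 and Blnk preB-ALL 5 (3.50 and 3.57 for Mpo, 3.48 and 4.39 for S100a8), the pair with the high granulocyte medians. In the other 3 LAP tumours S100a8 lay between -4.51 and -3.43, below the other 4 Blnk tumours, which lay between -2.31 and 0.77. The macrophage gene Lyz2 differed by -0.33 ± 0.45.

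Of 25 Jak-Stat regulators and cytokine receptors, 2 were higher and 2 lower at an unadjusted p under 0.05, beside 4.95% and 6.71% of all genes, and the median was -0.01. Il6ra, a receptor chain for IL-6, read -0.78, -0.51, -0.87, -1.19 and -0.10 in the Blnk tumours and 0.59, 1.61, 0.69 and 0.01 in the LAP tumours. Its groups did not overlap on either of 2 probe sets, and the difference was 1.41 ± 0.34 (limma adjusted p = 0.191). Stat3, which acts below this receptor, differed by 0.69 ± 0.20. Ifnar1 and Ifngr2, interferon receptor chains, had groups without overlap and differed by -0.66 ± 0.19 and -0.87 ± 0.25. Groups did not overlap on 1 of 2 Ifngr2 probe sets. Of 14 IL-7 and STAT5 response genes, 5 were higher and 1 lower at an unadjusted p under 0.05, beside the same 4.95% and 6.71%, with a median of 0.40. The higher included the kinase genes Pim1 (1.00 ± 0.37) and Pim2 (0.77 ± 0.27), the inhibitor gene Socs1 (0.73 ± 0.24) and the cyclin gene Ccnd2 (2.13 ± 0.86). The lower was Jak1. Over the list 8 differences were positive and 6 negative, where 51.0% of all genes were positive. Socs2, named by rule for this list, differed by -1.40 ± 1.23, and Ccnd3 by -0.83 ± 0.51. The IL-2 receptor gene Il2ra differed by 0.15 ± 0.30, and the adaptor gene Sh2b3 was -3.98 in LAP preB-ALL 1 alone.

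Few cell-cycle genes lay apart. Over 37 measured genes the median difference was -0.06, with 5 lower and 2 higher at an unadjusted p under 0.05, beside 6.71% and 4.95% of all genes. The 5 were Cdkn1a, Cdkn1b, Cdkn2c, E2f2 and Kif11, of which 3 encode inhibitors of cyclin-dependent kinases. Cdkn2c, the p18 inhibitor of the cyclin-D kinases, read -0.01, 0.00, 0.73, 0.40 and 0.47 against -0.70, -0.97, -0.90 and -0.08. Its groups did not overlap, with a difference of -0.98 ± 0.19 (limma adjusted p = 0.125). Cdkn1b, the p27 inhibitor, differed by -1.03 ± 0.27. E2f2 was -2.43, -2.20 and -2.29 in LAP preB-ALL 1 to 3, 0.97 in LAP preB-ALL 4, and between -0.93 and 0.02 in the Blnk tumours. Cdkn2a, the Ink4a and Arf locus, read 3.64, 0.26, 3.51 and -1.84 in the LAP tumours and between -1.70 and 1.59 in the Blnk tumours.

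Mycn was high in some Blnk tumours, and Myc varied in both groups. Mycn read 8.20, -0.38, -0.39, 3.81 and 1.74 in the Blnk tumours, while the 4 LAP tumours lay between -0.34 and 0.29. Myc read -3.70, 1.41, -0.18, 0.56 and -0.47 in the Blnk tumours and 1.29, 0.06, 1.21 and -0.01 in the LAP tumours. The lowest Myc and the highest Mycn were in the same tumour, Blnk preB-ALL 1. Neither difference passed (-2.65 ± 1.64 and 1.11 ± 0.75), and the ribosome biogenesis list had a median of 0.03 over 24 genes. The sign of the Mycn difference held on 2 of its 3 probe sets.

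Glycolysis and cholesterol genes lay slightly higher in the LAP tumours on average. In the glycolysis and hypoxia list 19 of 22 differences were positive, beside 51.0% of all genes, and the median was 0.33. At an unadjusted p under 0.05, 8 were higher and none lower, beside 4.95% and 6.71% of all genes. Pfkl, phosphofructokinase, read -0.03, -0.40, -0.44, -0.20 and 0.03 against 0.40, 1.15, 0.85 and 0.04, without overlap (0.82 ± 0.22, limma adjusted p = 0.23). Its groups did not overlap on 2 of 3 probe sets. Car9, a hypoxia-induced carbonic anhydrase, differed by 0.62 ± 0.15, and Hk2, hexokinase, by 0.73 ± 0.31. Of 16 cholesterol synthesis genes 15 were positive, beside 51.0% of all genes, with a median of 0.31. At an unadjusted p under 0.05, 2 of them were higher and none lower, beside the same 4.95% and 6.71%. LAP preB-ALL 2 had the highest median of the 9 tumours for both lists (0.85 and 0.58). The groups overlapped in both. For cholesterol synthesis Blnk preB-ALL 1 read 0.39, above LAP preB-ALL 1, 3 and 4 (0.32, 0.30 and -0.10). For glycolysis and hypoxia it read 0.29, above LAP preB-ALL 1 and 4 (0.09 and 0.14).

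Apoptosis, stress and interferon lists had smaller medians, apart from the interferon-inducible GTPases. Median differences were 0.13 for the Bcl2 family, -0.13 for the p53 response, 0.29 for NF-kB, 0.08 for the unfolded protein response, 0.17 for immediate early genes and 0.03 for the type I interferon response. At an unadjusted p under 0.05, 2 of 19 Bcl2 family genes were higher and 2 lower, beside 4.95% and 6.71% of all genes. The higher were Pmaip1, a BH3-only apoptosis gene (1.97 ± 0.63), and Bid (1.04 ± 0.45). The lower were Bok (-1.10 ± 0.43) and Apaf1 (-0.58 ± 0.22). Of 18 p53 response genes, 2 were higher (Pmaip1 and Aen) and 3 lower (Cdkn1a, Btg2 and Trp53inp1), beside the same shares. Of 18 NF-kB genes, 1 was higher, Bcl3, an IkB family member (1.80 ± 0.56), and 1 lower, Tifa, beside the same shares. Of 24 type I interferon genes, 3 were higher and 2 lower, again beside these shares. The higher were Cgas (1.20 ± 0.36), Zbp1 (1.30 ± 0.49) and Ifi35. The lower were Ifit2 and Ifit3, antiviral proteins (-1.13 ± 0.42 and -0.99 ± 0.46). The interferon-inducible GTPases had a median of 0.74, with no member at an unadjusted p under 0.05. Igtp read 0.45, 1.32, -0.92 and 2.30 in the LAP tumours and between -1.36 and 0.41 in the Blnk tumours. The Gimap GTPases of lymphocytes had a median of 0.44, and Gimap8 was -3.92 in Blnk preB-ALL 1 and -2.08 in Blnk preB-ALL 2.

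**Figure D4:**
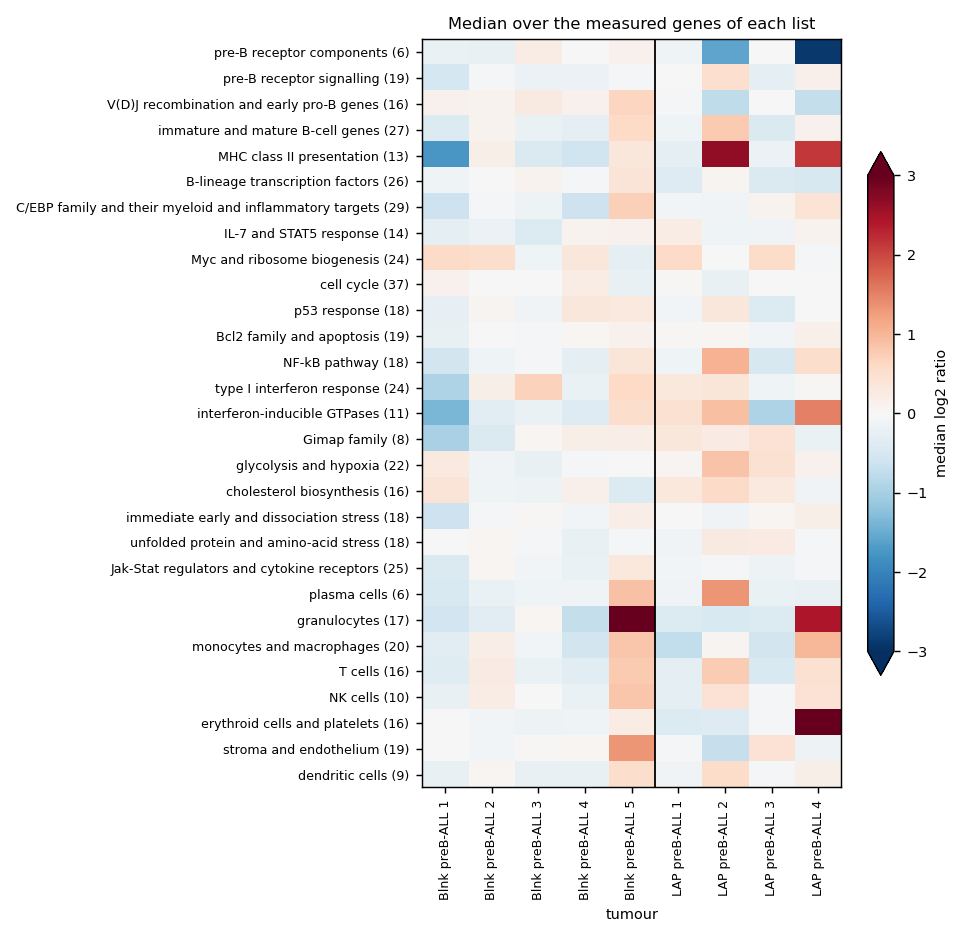
Heat map of the median log2 ratio over the measured genes of each of 29 lists (rows, number of genes in brackets) in the 9 tumours (columns), with colours ending at 3 in either direction. The erythroid list reaches 5.31 in LAP preB-ALL 4, the granulocyte list 3.06 in Blnk preB-ALL 5 and 2.42 in LAP preB-ALL 4, and the class II list 2.65 in LAP preB-ALL 2 and 2.12 in LAP preB-ALL 4.

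Markers of other cells varied by tumour more than by group. The erythroid genes Hemgn and Rhag were 7.80 and 7.38 in LAP preB-ALL 4 and at most 0.38 in the other 8 tumours compared. In LAP B-ALL 1 to 3, outside the comparison, Hemgn read 7.29, 7.33 and 8.01 and Rhag 6.72, 6.91 and 7.78. T-cell markers had medians between -0.46 and 0.76 in the LAP tumours and between -0.37 and 0.78 in the Blnk tumours. Cd3g read 3.16 and 3.54 in LAP preB-ALL 2 and 4 and 2.29 in Blnk preB-ALL 5, while the T-cell medians of these 3 tumours were 0.76, 0.45 and 0.78. Monocyte and macrophage medians ran from -0.73 to 1.00 and from -0.54 to 0.84. Stroma and endothelium genes leaned lower in the LAP tumours, with a median difference of -0.49. The list medians overlapped, at -0.04, -0.70, 0.43 and -0.16 in LAP preB-ALL 1 to 4. In the Blnk tumours they lay between -0.09 and 0.06, apart from 1.32 in Blnk preB-ALL 5. Of 19 measured, 16 were negative and 3 positive, where 51.0% of all genes were positive. Col3a1 was -5.16 in LAP preB-ALL 2 and 0.43 in LAP preB-ALL 3. The part of these cells in the differences above was not tested. None of the 29 lists held a member that passed the adjusted test, and over all lists 50 and 37 of 495 measured genes were higher and lower at an unadjusted p under 0.05, beside 4.95% and 6.71% of all genes.

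More genes had a wide spread within the LAP group than within the Blnk group. The median SD within the group was 0.240 in the LAP tumours and 0.209 in the Blnk tumours, and 57.1% of genes had the wider spread in the LAP group. An SD over 2 was found for 267 genes in the LAP tumours and 75 in the Blnk tumours, 40 of them shared. Correlations over genes ran from -0.16 (LAP preB-ALL 1 and 4) to 0.34 (LAP preB-ALL 1 and 3) among the LAP pairs and from -0.24 to 0.28 among the Blnk pairs, so they did not set the LAP group apart as the less alike. These describe values centred over the same 16 tumours, so pairs lean toward low correlations.

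Genes of some chromosomes shifted together in single tumours of both groups. The median of a chromosome minus that of the other autosomes was 0.10, 0.08 and 0.06 for chromosome 12 in Blnk preB-ALL 1, 2 and 5, and 0.08 and 0.09 for chromosome 14 in Blnk preB-ALL 3 and 4. For chromosome 16 it was 0.08, 0.09 and 0.09 in Blnk preB-ALL 1 to 3, while the LAP tumours lay between -0.02 and -0.01. Chromosome 15 read 0.09 in Blnk preB-ALL 2 and 0.10 in LAP preB-ALL 2. In the other LAP tumours chromosome 5 read 0.07 in LAP preB-ALL 1, and chromosome 6 read 0.07 and 0.06 in LAP preB-ALL 3 and 4. Chromosome 19 read 0.05, -0.08, 0.06, 0.06 and -0.06 in the Blnk tumours and between -0.08 and 0.04 in the LAP tumours. It read 0.22, 0.21 and 0.38 in the tumours with both lesions. Genes lower in the LAP tumours without overlap made up 5.17% of chromosome 16, 4.87% of chromosome 14 and 4.36% of chromosome 12, beside 2.40% of all genes. Tra2b, a splicing regulator (-1.18 ± 0.21), Ifnar1 and Ifngr2 lie on chromosome 16, and Rnf144a and Rhob lie on chromosome 12. Gfra1, Stambpl1 and Kif20b lie on chromosome 19, where 1.58% of genes were lower without overlap. Spsb4 lies on chromosome 9, where the 9 tumours lay between -0.02 and 0.03. Whether the differences of the genes in this paragraph follow the chromosome medians was not tested.

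**Figure D5:**
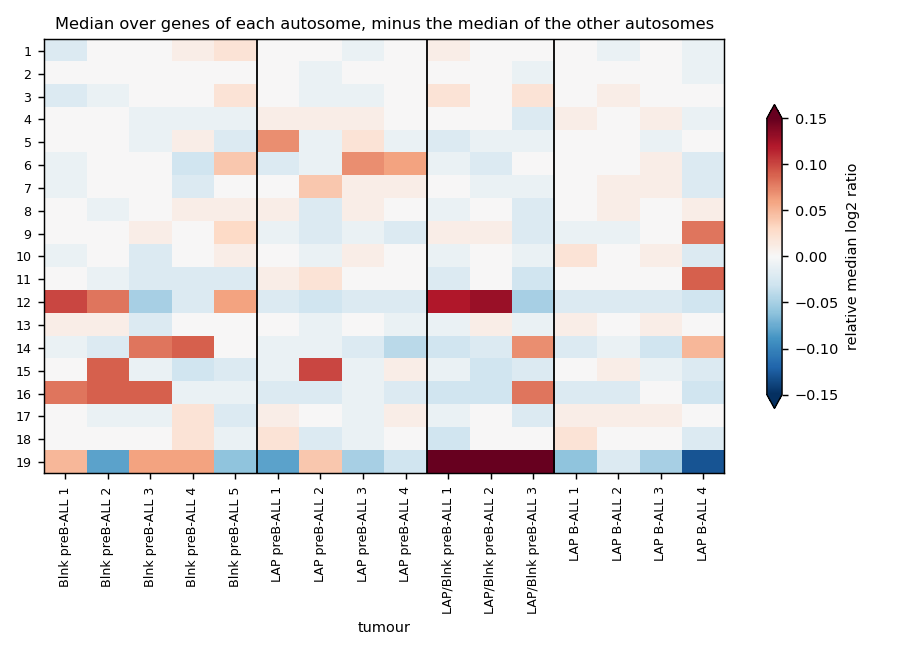
Heat map of the median log2 ratio of the genes of each autosome minus that of the other autosomes (rows) in the 16 tumours (columns, groups parted by lines), with colours ending at 0.15 in either direction. Chromosomes 12, 14 and 16 are raised by 0.06 to 0.10 in some Blnk preB-ALL and in none of the LAP preB-ALL. Chromosome 19 is raised by 0.22, 0.21 and 0.38 in the LAP/Blnk preB-ALL.

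Array and RNA controls overlapped between the groups. The ratio of 3′ to 5′ signal differed by -0.02 for Gapdh and -0.09 for actin (exact permutation p = 0.841 and 0.0635, adjusted 0.841 and 0.127). Spiked bacterial controls differed by -0.19 (exact permutation p = 0.0476, adjusted p = 0.127) and 18S rRNA by -0.09 (exact permutation p = 0.0952, adjusted p = 0.127). Xist, which is expressed from the inactive X chromosome, was low in Blnk preB-ALL 1, 2 and 5 and in LAP preB-ALL 2 and 3, so low and high values occurred in both groups.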

How the data were processed

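Total RNA of the tumours was hybridised to Affymetrix-type mouse arrays. The deposited table holds the authors' log ratios of 45141 probe sets to a median, taken here as log2 ratios since the base is not stated. The labels give no batch or scan date. In the deposited values every probe set has a median of 0 over the 16 tumours and, separately, over the 8 cell-line arrays, so levels cannot be compared between genes. MAS5 is the one tool named in the submitters' processing notes, and no version is given. Intensities and detection calls were not used here, so weak signals could not be filtered out, and ratios of genes near background may be noise.

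Probe sets were named from the platform annotation of 2016 and matched to RefSeq (GRCm38.p6). Of them, 28898 had 1 gene symbol, 551 several and 15692 none. Each of 17097 genes was read from 1 probe set, the one with the largest spread around the group means (7180 genes had more than 1). limma 3.58.1 in R 4.3.3 was fitted without a variance trend over the 16 tumours (4 groups), with Benjamini-Hochberg adjustment over all genes and a threshold of 0.05. SEs of genes come from this fit, and those of the Cebpb and Blnk probe sets from the 9 tumours. Exact permutation tests were two-sided over 126 splits, and 4 against 5 tumours allow no p below 0.0159. The fit was tested on simulated data.

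The 29 gene lists (568 genes, 495 measured) and the genes were chosen with earlier results of these data known, and no set test was run. The rule named the Cebpb and Blnk probe sets, every called gene, 2 members of each list with the largest difference and a fixed panel, 75 genes in all. Others were chosen after their values were seen. Alternatives were other weights, scalings, probe set rules and left-out tumours. Promoter sequences were those of RefSeq, read at the first start listed for a gene.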

Additional observations from a re-analysis of the deposited data

Results flagged for a closer look

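The values below lay apart from the rest of their own group by a wide gap relative to the range of that group (a gap above Dixon's critical value). Of 276 groups of values tested over the named genes, 25 did so. Chance gives about 1 in 20, or 13.8, for independent genes picked without sight of their values. Many named genes were picked after their values were seen or for a large difference. Some are also high in the same tumours, such as Hemgn and Rhag. The count of 25 therefore cannot be judged against 13.8, and no conclusion is drawn from it.

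LAP preB-ALL 4 accounted for 6 values. It was high for the erythroid genes Hemgn (7.80) and Rhag (7.38), the granule genes Mpo (3.50) and S100a8 (3.48) and the cell-cycle factor gene E2f2 (0.97), and low for Bach2 (-5.61). Blnk preB-ALL 5 accounted for 5, all on the high side: Mpo (3.57), the macrophage receptor gene Mrc1 (1.64), Cd83 (1.95), Egr2 (1.15) and Ets1 (0.83). These are the 2 tumours with the high granulocyte medians.

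LAP preB-ALL 2 lay low for Cebpb (-1.41) and high for Blnk (1.45), Fcgr2b (1.51) and Irf8 (1.82). LAP preB-ALL 1 lay low for Sh2b3 (-3.98), an inhibitor of cytokine signalling, and was the highest LAP preB-ALL for Gfra1 (-1.39). LAP preB-ALL 3 was the highest of its group for Epha2 (-0.05) and Vash2 (0.18).

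Blnk preB-ALL 2 lay low for Vpreb1 (-0.45), Vpreb2 (-0.98) and Ell2 (-2.13) and high for Lat2 (1.28), an adaptor gene. Dntt was 5.79 in Blnk preB-ALL 3, and Lilrb4a was -1.67 in Blnk preB-ALL 4.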

How the results depend on the processing

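The count of 1 gene at an adjusted p under 0.05 in limma remained 1 with a variance trend or robust estimation. It was 4 with array weights, 2 with quantile normalisation, 2 with the first probe set by name and 3 among the 8548 genes of wider spread, where 1210 had an unadjusted p under 0.05. It was 0 with the mean of probe sets (2141 genes at an unadjusted p under 0.05; Spsb4 adjusted p 0.0528) and 0 with the replicate block (1607 genes; Spsb4 -3.02, adjusted p 0.404). The block rests on a shared number only: deviations of tumours with the same number correlated at 0.08, 0.23, 0.38 and -0.11, and 2 of 4 LAP tumours correlated best with their own number. Chosen after seeing the data, leaving out LAP B-ALL 4 gave 48, and leaving out Blnk preB-ALL 5 and LAP preB-ALL 4 gave 16. Leaving out each of the 9 tumours in turn gave 0 to 14 genes and 1546 to 2410 at an unadjusted p under 0.05. The cause of these changes was not tested. The difference changed sign for 8 named genes. For gene Mpo it was 0.09 with array weights, 0.73 with the replicate block and -0.97 to 0.73 over the left-out tumours. For gene Ms4a1 it was -0.40 with array weights and -0.91 to 1.94 over the left-out tumours. Without Blnk preB-ALL 5 and LAP preB-ALL 4 it was 0.27 for gene Lyz2 and 0.15 for gene Irf4. Over the left-out tumours it ran from -0.82 to 0.16 for gene Lyz2, -1.33 to 0.05 for gene Asns, -0.15 to 0.29 for gene Il2ra, -0.05 to 2.80 for gene Hemgn and -0.02 to 2.46 for gene Rhag. The number of genes whose groups do not overlap, 656, became 807 to 1354 without 1 tumour and 1679 without that pair, where fewer tumours make separation easier. For the Cebpb and Blnk probe sets the sign held over the left-out tumours.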

Other observations

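Blnk preB-ALL 1 had low Xist (-7.56) together with intermediate values of the Y-linked genes Eif2s3y (1.03) and Kdm5d (0.48). The other 4 of the 9 tumours with low Xist lay between 2.62 and 5.89 for Eif2s3y and between 3.37 and 4.24 for Kdm5d. Blnk preB-ALL 3 and 4 and LAP preB-ALL 1 and 4 had high Xist. They lay between -0.21 and 0.11 for Eif2s3y and between -0.13 and 0.00 for Kdm5d. Outside the comparison, LAP/Blnk preB-ALL 1 had low Xist (-7.49) and read 3.10 and 1.21 for these genes. Blnk preB-ALL 1 also had the highest Mycn (8.20) and the lowest Myc (-3.70) of the 9.

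Jchain, the joining chain of secreted immunoglobulin and a plasma-cell gene, was 6.08 in LAP preB-ALL 2, 1.28 and 1.21 in LAP preB-ALL 1 and 3 and -1.56 in LAP preB-ALL 4. In the Blnk tumours it ran from -3.41 to 2.69. The difference of 2.64 ± 1.82 did not pass (limma adjusted p = 0.573). Gzmb, a cytotoxic granule gene, was 3.34 and 5.18 in LAP preB-ALL 2 and 4 and at most 0.39 in the other 7 tumours. The NK-cell receptor gene Klrb1c was 3.88 in Blnk preB-ALL 3 and 3.19, 3.59 and 2.28 in the tumours with both lesions.

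Cebpb read -1.41 in LAP preB-ALL 2 and between 0.03 and 0.19 in the other LAP preB-ALL, and this tumour had low Vpreb1 and high class II genes like LAP preB-ALL 4.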
